A study of Mus musculus with 8 samples.

Results

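The Dlk1-Dio3 miRNA cluster is a group of miRNA genes on the distal part of mouse chromosome 12, between the protein-coding genes Dlk1 and Dio3. The 49 mature miRNAs described here were chosen by name from the 1966 mature miRNAs of the table, with earlier results of these data known. They come from 41 hairpin precursors, all on the plus strand. All 49 were looked up in every library, and those with at least 5 counts in any library were tested for a difference between ages.

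Small RNA was sequenced from microglia, the resident macrophages of the brain, of male C57BL/6 mice. The young group held 4 libraries from mice of 3 months and the aged group 4 libraries from mice of 21 months. Microglia were isolated by flow cytometry as live cells with the surface phenotype CD11b+, CD45low and CD206- from hemispheres without olfactory bulb and cerebellum. Each library came from 1 mouse, except aged 4, which pooled cells of 2 mice. The libraries held between 150322 and 298820 counts assigned to miRNAs, with 208379 to 298820 in the young and 150322 to 235124 in the aged group. A count of 3, taken as the detection floor, corresponded to 10.0 to 20.0 counts per 1000000 miRNA counts (CPM).

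The locus is imprinted, so that the allele inherited from the mother transcribes long non-coding RNAs, among them Meg3, Rian and Mirg, together with the miRNA hairpins, while the paternal allele expresses Dlk1, Rtl1 and Dio3. Many of the miRNAs are thought to be processed from the same long maternal transcripts, which is why the locus is often treated as a unit. In the brain its miRNAs are best known from neurons, where miR-134 takes part in the control of dendritic spines and the miR-379 to miR-410 group responds to neuronal activity. A mature miRNA pairs with its target mRNAs mainly through its seed, the bases 2 to 8 from the 5′ end, and therefore members with different seeds are expected to bind different targets even when they are made together.

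Sequences from RefSeq (build GRCm38.p6) matched 46 of the 49 members, and none of the 46 seeds was shared by a pair of members. The 5 most abundant members are shown first, since most cluster counts came from them, and the capitals mark the seed.
mmu-miR-127-3p: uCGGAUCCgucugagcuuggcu
mmu-miR-379-5p: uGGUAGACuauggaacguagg
mmu-miR-136-5p: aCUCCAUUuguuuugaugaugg
mmu-miR-369-5p: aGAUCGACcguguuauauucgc
mmu-miR-409-3p: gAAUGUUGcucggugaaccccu
Although no seed was shared, 4 pairs of members had seeds that differed at 1 base. mmu-miR-379-5p, shown above, was paired in this way with mmu-miR-411-5p. The remaining pairs were mmu-miR-376a-3p with mmu-miR-376b-3p, mmu-miR-381-3p with mmu-miR-300-3p, and mmu-miR-410-3p with mmu-miR-411-3p. They are shown to compare near relatives of which one was counted and the other was not.
mmu-miR-411-5p: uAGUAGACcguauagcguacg
mmu-miR-376a-3p: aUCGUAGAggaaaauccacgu
mmu-miR-376b-3p: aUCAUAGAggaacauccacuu
mmu-miR-381-3p: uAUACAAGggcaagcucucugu
mmu-miR-300-3p: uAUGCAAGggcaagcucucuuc
mmu-miR-410-3p: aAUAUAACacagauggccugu
mmu-miR-411-3p: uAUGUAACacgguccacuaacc
mmu-miR-379-5p and mmu-miR-411-5p were both counted, with 67 and 15 counts over the 8 libraries. In the other pairs mmu-miR-376a-3p had 35 counts, mmu-miR-381-3p had 8 and mmu-miR-410-3p had 3, and their partners mmu-miR-376b-3p, mmu-miR-300-3p and mmu-miR-411-3p had 0.

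Most of the cluster was at or near the limit of detection in these microglia. Of the 49 members, 22 had at least 1 count and 27 had 0 in all 8 libraries, which allows up to 3 counts in each. The share of members with a count was 44.9%, against 33.9% of all miRNAs in the table. A count of at least 5 in any library was reached by 12 members from 10 hairpins, or 24.5% of the members, against 21.3% of the table. mmu-miR-127-3p and mmu-miR-369-5p were the members counted in all 8 libraries. The whole cluster summed to 583 counts, of which the 12 tested members held 93.0% and the 5 most abundant 64.5%. The most abundant of them, mmu-miR-127-3p, ranked 176 among all miRNAs by mean CPM.

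Detection followed position along the locus unevenly. A short stretch of 4.94 kb opposite Rtl1, the retrotransposon-derived imprinted gene (chr12:109590447-109595388, GRCm38), held 5 hairpins that lie antisense to an Rtl1 exon. Its 7 members gave 217 counts, or 37.2% of the cluster, nearly all from mmu-miR-127-3p and mmu-miR-136-5p. The largest stretch, from miR-379 to miR-410 (chr12:109709060-109743795), held 31 hairpins in 34.7 kb. Its 36 members gave 365 counts, or 62.6% of the cluster, and 17 of them were detected. In this stretch the annotation placed 7 hairpins in exons and 4 in introns of the long non-coding RNA Mirg, on the same strand. The listed miRNAs of the 4 hairpins between Meg3 and Rtl1 gave a single count, from mmu-miR-337-5p, and mmu-miR-370-3p, in an intron of Rian, had none. This holds for the listed miRNAs only, since miR-341-3p, which is not listed, also lies within Rian and had 49 counts in all.

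**Figure D1:**
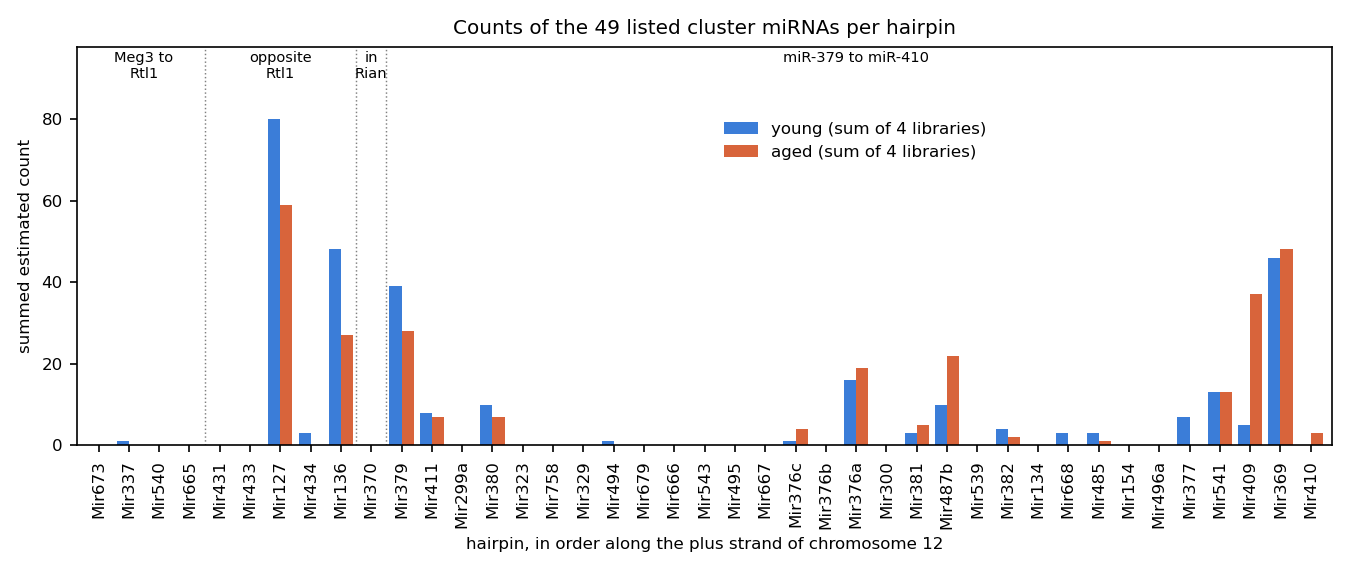
Summed estimated counts of the 49 listed miRNAs per hairpin (vertical axis) over the 4 young (blue) and 4 aged (orange) libraries, with the 41 hairpins in genomic order (horizontal axis) and dotted lines between the stretches of the locus. Counts came mainly from Mir127 and Mir136 opposite Rtl1 and from Mir379, Mir376a, Mir487b, Mir409 and Mir369, and the listed miRNAs of 21 hairpins had none.

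Members without any count were spread over all stretches. Between Meg3 and Rtl1 they were mmu-miR-673-5p, mmu-miR-337-3p, mmu-miR-540-3p and mmu-miR-665-3p, and opposite Rtl1 mmu-miR-431-5p, mmu-miR-433-3p and mmu-miR-434-5p. From miR-379 to miR-410 there were 19, including mmu-miR-134-5p, the miRNA known from dendritic spines, and mmu-miR-329-3p, mmu-miR-495-3p, mmu-miR-543-3p and mmu-miR-154-5p. The others in this stretch were mmu-miR-299a-5p, mmu-miR-323-3p, mmu-miR-758-3p, mmu-miR-679-5p, mmu-miR-666-5p, mmu-miR-667-3p, mmu-miR-539-5p and mmu-miR-496a-3p, the second arms mmu-miR-382-3p, mmu-miR-409-5p and mmu-miR-485-3p, and mmu-miR-376b-3p, mmu-miR-300-3p and mmu-miR-411-3p, whose sequences are shown above. The median GC content of the mature sequences was 44% in the 11 tested members with a sequence, 45.5% in the 8 detected below 5 counts and 50% in the 27 without counts, with overlapping ranges (23.8% to 59.1%, 36.4% to 66.7% and 36.4% to 68.2%).

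The question of the comparison was whether the cluster changed as a unit between young and aged microglia. Its summed counts were 33, 57, 119 and 92 in young 1 to 4 and 71, 42, 75 and 94 in aged 1 to 4. Relative to depth, the young libraries had 110, 274, 439 and 395 CPM and the aged libraries 472, 249, 319 and 521 CPM. The groups overlapped over most of their range, with the lowest value in young 1 and the highest in aged 4. The mean was 304 ± 147 CPM in young and 390 ± 128 CPM in aged libraries (SD, n = 4 each), a ratio of 1.28, so the means differed by less than 1 SD of either group. Young 1 was the deepest library and had the lowest cluster level, with a Wilson 95% interval of 78.6 to 155 CPM that lay below those of all other libraries. Intervals cover counting error only. Without young 1 the ratio of the means was 1.06.

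Zeros among the members were concentrated in a few libraries. Of the 12 tested members, 8 had 0 counts in young 1, 6 in aged 1 and 5 in aged 2, against 1 in young 3, 1 in aged 3 and 0 in aged 4. In young 1 this was 66.7% of the tested members, whereas 22.9% of all 419 tested miRNAs had 0 counts in that library. In aged 1, the shallowest library, the shares were 50.0% and 30.3%. Aged 1 nevertheless had the second highest cluster level, since mmu-miR-127-3p and mmu-miR-409-3p gave 23 counts each of its 71. The members were also above the share of all tested miRNAs in young 2, young 4 and aged 2. They were below it in young 3 (8.33% against 14.1%), aged 3 (8.33% against 17.4%) and aged 4 (0% against 16.0%). The tested members had lower counts than all tested miRNAs (median of the mean counts 4.38 against 10.5).

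**Figure D2:**
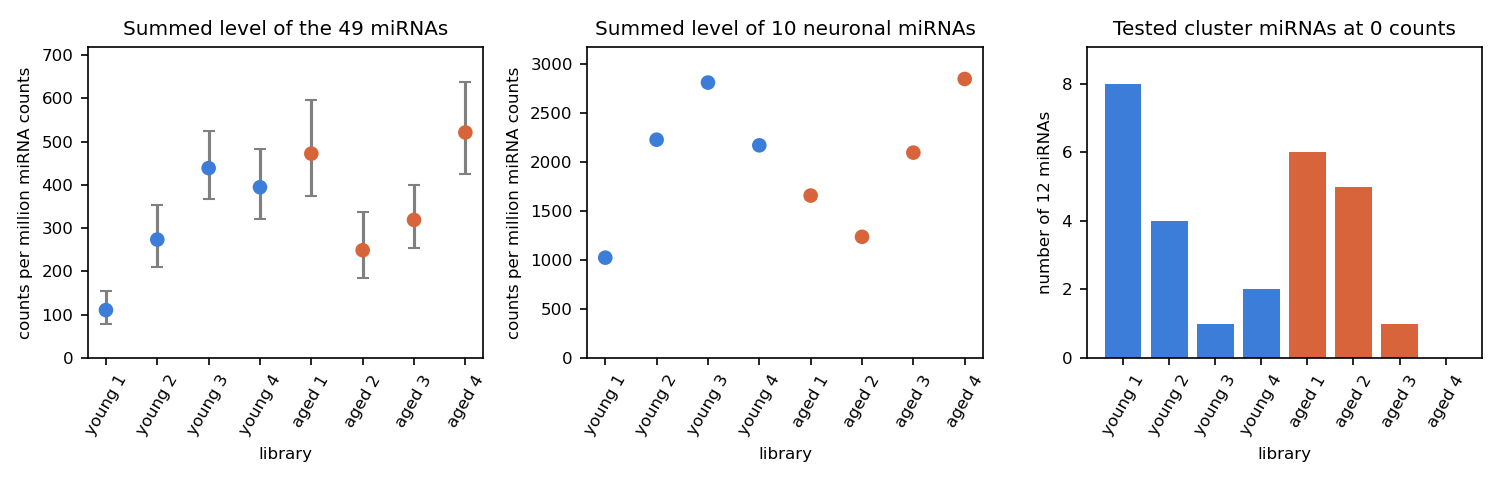
Left, summed level of the 49 cluster miRNAs per library in CPM with Wilson 95% intervals (counting error only). Middle, summed level of 10 neuronal miRNAs in CPM. Right, number of the 12 tested cluster miRNAs with 0 counts (young blue, aged orange). Young 1 and aged 2 were lowest in the left and middle panels, and young 1 had the most members at 0. Counted from the lowest, aged 1 ranked 7 in the left panel and 3 in the middle panel.

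Markers of microglia and of other brain cells were counted in the same libraries. The myeloid list of 5 miRNAs summed to 70635 ± 5361 CPM in young and 62120 ± 10212 CPM in aged libraries, led by miR-146a-5p, miR-142a-3p and miR-21a-5p, and 0 of its 5 miRNAs passed the test after adjustment. At an unadjusted p under 0.05 there were 2 of them, miR-142a-3p (log2 fold change -0.62, edgeR adjusted p = 0.118) and miR-223-3p (log2 fold change 1.69, edgeR adjusted p = 0.365). The 10 neuronal miRNAs summed to 1022, 2227, 2810 and 2169 CPM in young 1 to 4 and to 1656, 1235, 2095 and 2847 CPM in aged 1 to 4. None of the 10 was at 0 in all libraries, and the most abundant were miR-9-5p, miR-124-3p and miR-138-5p. Their sum was lowest in young 1, then in aged 2, and highest in aged 4, and the cluster was lowest and highest in the same libraries. In between the order differed. Counted from the lowest, aged 1 ranked 7 for the cluster and 3 for the neuronal sum, and young 2 ranked 3 and 6. By age the neuronal sum was 2057 ± 748 and 1958 ± 688 CPM, and 0 of 9 tested neuronal miRNAs had even an unadjusted p under 0.05. The red cell list was higher in aged libraries (197 ± 107 against 529 ± 298 CPM), where miR-451a passed the test with a log2 fold change of 1.42 (SE 0.34, edgeR adjusted p = 0.00242) and miR-486a-5p had no counts. Summed levels in young and aged libraries were 364 and 419 CPM for the oligodendrocyte list, 35.8 and 61.0 CPM for endothelium, 94.4 and 153 CPM for mural cells and 275 and 425 CPM for choroid plexus and epithelium, with 0 miRNAs called in each. The nearest to a call was miR-211-5p of the choroid plexus list (log2 fold change 1.38, SE 0.45, edgeR adjusted p = 0.0547). The part of these cells in the cluster values was not tested, and in a bulk sample fewer cells of a type and less RNA per cell cannot be told apart.

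No member of the cluster passed the test for a difference with age. In edgeR's quasi-likelihood test with Benjamini-Hochberg adjustment over the 419 miRNAs, 0 of the 12 members had an adjusted p under 0.05, and DESeq2 also called 0. The background was 16 of 419 miRNAs, or 3.82%. At an unadjusted p under 0.05 there was 1 member, mmu-miR-409-3p, against 12.2% of all tested miRNAs. The CPM values of the groups did not overlap for 1 member, mmu-miR-487b-3p, against 4.77% of all tested. For 12 members, 1 is the whole number nearest to either background share, so neither count is a result about the members. The p-values set each difference against the spread between these libraries, in a fit that shares information over the 419 miRNAs.

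The fitted values of the members lay on both sides of 0. The log2 fold change, aged over young, was above 0 for 8 members and below 0 for 4, and 199 of all 419 tested miRNAs (47.5%) were above 0. The median was 0.28 over the 12 members and -0.07 over all tested miRNAs, and the members ranged from -0.65 to 3.97, the upper end being mmu-miR-136-3p, which had counts in aged 4 alone. The filter itself favoured the sign of 4 members, since mmu-miR-136-3p, mmu-miR-409-3p and mmu-miR-411-5p reached 5 counts in aged libraries only and mmu-miR-380-3p in a young library only. Of the 8 members that reached 5 counts at both ages, 5 were above 0 and 3 below. Over all 12 tested members the standard errors ran from 0.55 to 2.31 with a median of 1.19, against 0.72 over all tested miRNAs. These errors went with low counts, as the median member had a mean count of 4.38 per library and the median tested miRNA 10.5. The members' median depended on single libraries, with 1.29 without young 4 and -0.11 without aged 4.

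**Figure D3:**
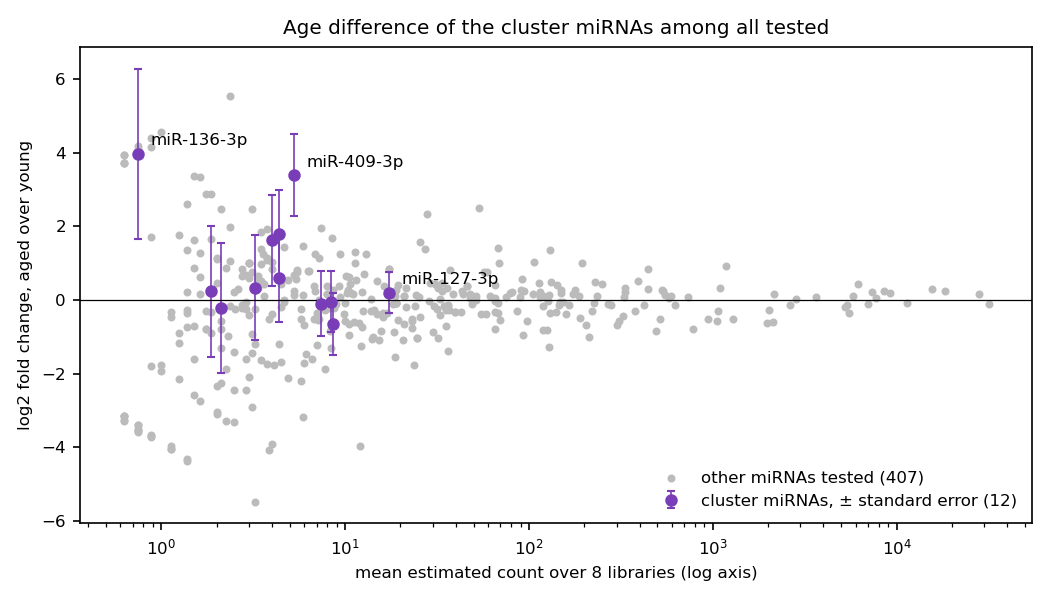
Log2 fold change, aged over young (vertical axis), against the mean estimated count over the 8 libraries (horizontal log axis) for the 12 tested cluster miRNAs (purple, bars show the standard error) and the other tested miRNAs (grey). The members lie among the low counts on both sides of 0, and mmu-miR-409-3p is the one farthest from 0 relative to its error.

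Opposite Rtl1, the levels of mmu-miR-127-3p, mmu-miR-136-5p and mmu-miR-136-3p were compared. mmu-miR-127-3p (Mir127, chr12:109592846-109592915), which is antisense and fully complementary to the Rtl1 transcript, had 2, 13, 38 and 27 counts in young 1 to 4 and 23, 12, 4 and 20 in aged 1 to 4. Low and high libraries occurred at both ages, with 6.69 CPM in young 1 and 17.0 CPM in aged 3 against 140 CPM in young 3 and 153 CPM in aged 1. Its mean was 81.3 ± 59.4 CPM in young and 88.0 ± 58.0 CPM in aged libraries (SD, n = 4 each), with a log2 fold change of 0.20 (SE 0.55) and an edgeR adjusted p of 0.914 (exact permutation p = 0.657). The direction was set by single libraries, as the log2 fold change was -0.16 without young 1 and -0.23 without aged 1.

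mmu-miR-136-5p (Mir136, chr12:109595327-109595388) had 5, 12, 22 and 9 counts in the young and 8, 0, 8 and 5 in the aged libraries. The highest values were in young 3 and young 2, aged 2 had none, and the groups overlapped. The mean was 48.5 ± 27.4 CPM in young and 28.7 ± 22.0 CPM in aged libraries, and the log2 fold change of -0.65 (SE 0.83) was the lowest of the members, with an edgeR adjusted p of 0.812. Its log2 fold change stayed below 0 when each library was left out in turn, between -1.13 and -0.26. mmu-miR-136-3p, from the other arm of the same hairpin, had 6 counts in aged 4 and 0 in the 7 other libraries. A count of 0 allows up to 3 counts in each young library, so no fold is given from the levels, and its fitted log2 fold change of 3.97 (SE 2.31, edgeR adjusted p = 0.512) depends on the prior count.

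At the start of the miR-379 to miR-410 stretch, mmu-miR-379-5p (Mir379, chr12:109709060-109709125), which has no other annotated gene over its hairpin, was counted 0, 18, 15 and 6 times in young 1 to 4 and 6, 0, 14 and 8 times in aged 1 to 4. The value was 0 in young 1 and in aged 2, and the groups overlapped. Its mean was 41.9 ± 37.3 CPM in young and 36.0 ± 25.4 CPM in aged libraries, with a log2 fold change of -0.04 (SE 0.84, edgeR adjusted p = 0.973). Its near relative by seed, mmu-miR-411-5p, had 0 to 3 counts in the young and 0 to 5 in the aged libraries and a log2 fold change of 0.23 (SE 1.78). From Mir380, mmu-miR-380-3p had 0 to 8 counts in young and 0 to 4 in aged libraries (log2 fold change -0.22, SE 1.76).

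In the middle of the stretch, mmu-miR-376a-3p belongs to a family whose precursors are known to be edited from adenosine to inosine in the brain. Its counts were 0, 5, 2 and 9 in the young libraries and 0, 6, 9 and 4 in the aged ones, and a log2 fold change of 0.59 (SE 1.18, edgeR adjusted p = 0.901). mmu-miR-487b-3p (Mir487b, chr12:109727333-109727414) had 0, 0, 5 and 5 counts in the young and 4, 7, 6 and 5 in the aged libraries. Young 1 and young 2 had none, and the highest young value, 21.4 CPM, was below the lowest aged value, 25.5 CPM. The mean was 9.97 ± 11.6 CPM in young and 30.3 ± 7.48 CPM in aged libraries. The exact two-sided permutation p was 0.029, the smallest that 4 against 4 libraries allow. Groups without overlap always give this value, so it adds nothing to the lack of overlap. The log2 fold change of 1.62 (SE 1.24) had an edgeR adjusted p of 0.599. In raw counts the groups overlapped, with 5 counts in young 3, young 4 and aged 4 and 4 counts in aged 1.

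**Figure D4:**
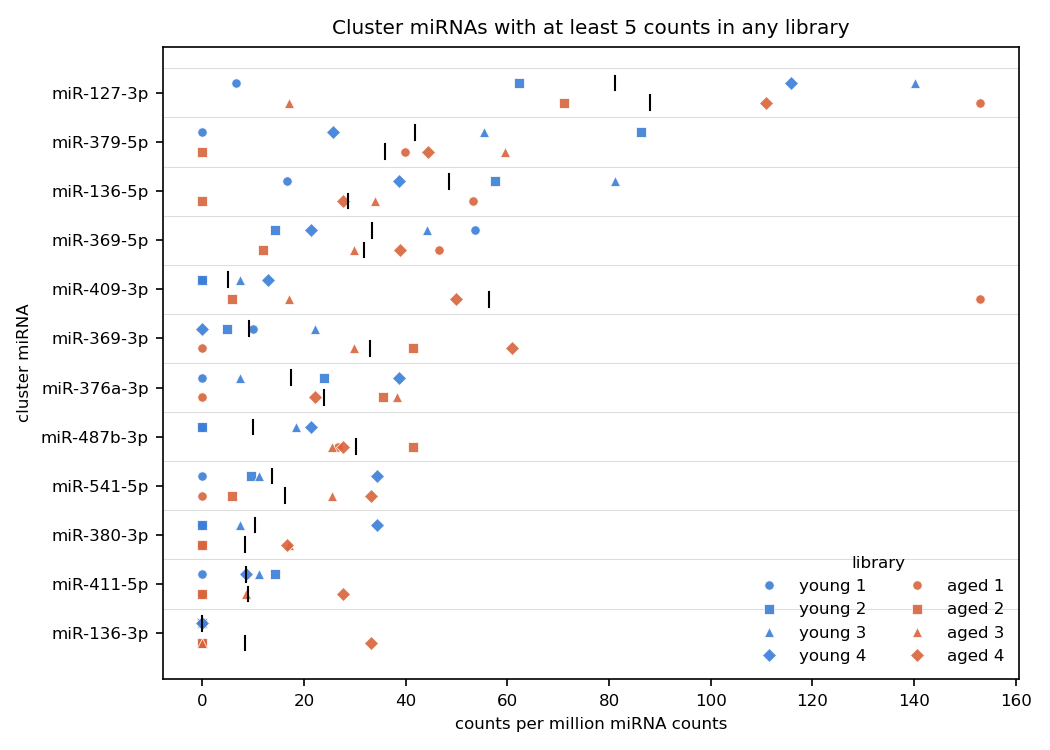
CPM of the 12 tested cluster miRNAs (rows) in each library (horizontal axis), with young libraries in blue, aged libraries in orange, marker shapes for the replicate number and black ticks for the group means. The groups overlap in 11 rows, do not overlap for mmu-miR-487b-3p, and the mean of mmu-miR-409-3p in aged libraries is carried by aged 1.

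Toward the 3′ end of the stretch, mmu-miR-409-3p (Mir409, chr12:109743158-109743236, in an intron of Mirg) had the lowest edgeR p of the members. Young 1 to 4 gave 0, 0, 2 and 3 counts, and aged 1 to 4 gave 23, 1, 4 and 9. Aged 1 stood far above the rest with 153 CPM, aged 4 followed with 49.9 CPM, and aged 2 with 5.92 CPM lay inside the young range. The mean was 5.06 ± 6.26 CPM in young and 56.5 ± 67.0 CPM in aged libraries, with a log2 fold change of 3.39 (SE 1.11), an unadjusted p of 0.00221 and an edgeR adjusted p of 0.0545 (exact permutation p = 0.0857). Without aged 1 the log2 fold change was 2.19 and the adjusted p 0.669, and without aged 2 it was 3.77 with an adjusted p of 0.029. mmu-miR-541-5p, from the neighbouring intronic hairpin, was counted 0, 2, 3 and 8 times in young and 0, 1, 6 and 6 times in aged libraries (log2 fold change 0.33, SE 1.42).

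mmu-miR-369-5p (Mir369, chr12:109743418-109743496, in an exon of Mirg) gave 16, 3, 12 and 5 counts in young 1 to 4, against 7, 2, 7 and 7 in aged 1 to 4. Young 1, where the cluster was lowest, had the highest value of this member, 53.5 CPM, and both groups had a low library. The mean was 33.4 ± 18.5 CPM in young and 31.8 ± 14.9 CPM in aged libraries, with a log2 fold change of -0.10 (SE 0.89, edgeR adjusted p = 0.948). The other arm, mmu-miR-369-3p, gave 3, 1, 6 and 0 counts in young 1 to 4, against 0, 7, 7 and 11 in aged 1 to 4, and a log2 fold change of 1.79 (SE 1.2, edgeR adjusted p = 0.528).

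Both arms were counted for 2 of the 8 hairpins with both arms listed. For Mir369, described after its values were seen, the 5p arm made up 84.2%, 75.0%, 66.7% and 100% of the arm counts in young 1 to 4 and 100%, 22.2%, 50.0% and 38.9% in aged 1 to 4. The aged libraries 2 to 4 lay below all young libraries and aged 1 did not. Summed over the libraries, the share was 36 of 46 counts, or 78.3% (Wilson 95% interval 64.4% to 87.7%), in young and 23 of 48, or 47.9% (34.5% to 61.7%), in aged. These intervals cover counting error only and leave out the spread between libraries, which was 22.2% to 100% in aged. The lowest library had 4 arm counts, so the intervals cannot be read as a difference between ages. No hairpin reached the minimum of 5 arm counts in every library, so arm shares were not tested. In Mir136 the 3p arm had counts in aged 4 only. The remaining 6 hairpins had counts from 1 arm, such as the 42 counts of Mir409, all from the 3p arm.

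The stretches of the locus were also compared as sums, with no test because they are scores over the members. The miR-379 to miR-410 stretch summed to 26, 32, 56 and 55 counts in young 1 to 4, against 40, 30, 63 and 63 in aged 1 to 4. Relative to depth this was 87.0, 154, 207 and 236 CPM in young 1 to 4, and 266, 178, 268 and 349 CPM in aged 1 to 4. Aged 1, aged 3 and aged 4 were above all young libraries, and aged 2 lay inside the young range. Its mean was 171 ± 65.4 CPM in young and 265 ± 70.1 CPM in aged libraries, a difference larger than 1 SD of either group. That difference depended in part on mmu-miR-409-3p, which reached 5 counts in aged libraries only and gave 153 of the 266 CPM in aged 1. The means of this member were 5.06 CPM in young and 56.5 CPM in aged libraries. Without it, aged 1 lay inside the young range, while aged 3 and aged 4 stayed above all young libraries. The means of the stretch then differed by less than 1 SD of either group, with the aged mean still higher. The stretch opposite Rtl1 summed to 7, 25, 63 and 36 counts in young 1 to 4, against 31, 12, 12 and 31 in aged 1 to 4, with means of 133 ± 86.6 and 125 ± 75.7 CPM and overlapping values. The part of the cluster counts that came from opposite Rtl1 ranged from 21.2% in young 1 to 52.9% in young 3 and from 16.0% in aged 3 to 43.7% in aged 1, so the ages overlapped.

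A further 10 members were detected with at most 4 counts in any library and 41 counts in all, too few to test. The highest were mmu-miR-381-3p with 8 counts in all, mmu-miR-377-3p with 7, in young 1 and young 4, and mmu-miR-382-5p with 6. mmu-miR-376c-3p had 5 counts in all, mmu-miR-485-5p 4, mmu-miR-410-3p, mmu-miR-434-3p and mmu-miR-668-3p 3 each, and mmu-miR-337-5p and mmu-miR-494-3p 1 each. Among all 22 detected members, 2 had no count in the young libraries (mmu-miR-136-3p and mmu-miR-410-3p) and 5 had none in the aged libraries. These 5 had at most 7 counts in all, and the young libraries together held more miRNA counts (1.01e+06 against 7.35e+05). The same share over all miRNAs was not taken, so these numbers are not a result about age.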

How the data were processed

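Small RNA of microglia sorted from 4 young and 4 aged male mice was measured. The authors ran miRMaster on the reads, which were aligned to GRCm38 and mapped to miRBase with Bowtie. The deposited values are estimated counts of each mature miRNA, neither normalized nor filtered, with fractions in 68 of 3173 nonzero values and in none of the cluster's. How reads matching several miRNAs were divided is not given in the sources used here.

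Groups and replicate numbers came from the sample labels. The 49 members and all lists were chosen with earlier results of these data known. CPM is the count per 1000000 miRNA counts of the library. Counts were rounded and tested in edgeR 4.0.16 (R 4.3.3) with TMM factors and the quasi-likelihood fit of the installed version, without bias adjustment, over 419 miRNAs with at least 5 counts in any library, with Benjamini-Hochberg adjustment and a threshold of 0.05. The SE is the log2 fold change divided by the square root of F. The script was tested on simulated data, drawn with less spread between libraries than was estimated here. That test therefore does not show how the fit performs at the spread of these libraries. An exact permutation test, two-sided over the 70 assignments of 4 against 4 libraries, was also run for single miRNAs on log2(CPM + 1). The floor was fixed at 3 counts, and the totals of 150322 to 298820 counts set the CPM to which it corresponded. Intervals are Wilson 95% intervals.

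Values in every library are given for the 5 members with the highest mean CPM, members with an unadjusted p under 0.05 and members whose groups do not overlap, and other members were described after their values were seen. Alternatives were DESeq2 1.42.0, no TMM factors, other filters, the bias-adjusted fit, thinning to the smallest library, a replicate block and leaving out each library. Hairpin positions and host genes came from GENCODE (GRCm38).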

Additional observations from a re-analysis of the deposited data

Results flagged for a closer look

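Among 25 groups of 4 libraries with any spread, Dixon's test at its 95% level marked 2, and chance marks about 1 in 20, or 1.25 here. That rate is meant for continuous values and need not hold for low counts with many at 0. For mmu-miR-136-3p in aged microglia, aged 4 stood apart with 33.3 CPM (6 counts) against 0 in the other aged libraries, so the gap made up the whole range (ratio of 1). Groups with a count in 1 library only always give this ratio, so the mark adds nothing to the counts. For mmu-miR-487b-3p in aged microglia, aged 2 stood apart with 41.5 CPM (7 counts) against 25.5 to 27.7 CPM in the others, with a gap of 0.861 of the range.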

How the results depend on the processing

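Under DESeq2, no TMM factors, no filter, the bias-adjusted fit, thinning and the replicate block, 0 members were called, and with no filter 2 of 22 members had an unadjusted p under 0.05 (mmu-miR-136-3p and mmu-miR-409-3p). Leaving out each library in turn gave 0 to 1 members called, with 1 without aged 2, and 0 to 1 with an unadjusted p under 0.05, with 0 without aged 1. It gave a median log2 fold change of -0.11 to 1.29 and a ratio of cluster levels of 1.06 to 1.50. For single members it gave -0.23 to 0.64 for mmu-miR-127-3p, -0.40 to 0.36 for mmu-miR-369-5p, -0.47 to 0.47 for mmu-miR-379-5p and 2.19 to 4.18 for mmu-miR-409-3p. mmu-miR-127-3p turned below 0 without young 1 (-0.16) and without aged 1 (-0.23). mmu-miR-369-5p turned above 0 without young 1 (0.36), young 3 (0.04) and aged 2 (0.15), and was at -0.88 after thinning against -0.10 as reported. mmu-miR-379-5p turned above 0 under the bias-adjusted fit (0.018), thinning (0.083), the replicate block (0.26), and without young 2 (0.47), young 3 (0.17) and aged 2 (0.35). The cause was not tested. mmu-miR-409-3p kept a log2 fold change of 3.01 to 3.59 under the other settings, with adjusted p from 0.0799 to 0.401, the last under the replicate block. Over all miRNAs, 16 calls became 10 under DESeq2 and thinning, 2 under the bias-adjusted fit, 11 under the replicate block and 3 (without aged 4) to 22 (without young 1 or young 3) when a library was left out. Deviations of same-numbered libraries correlated at -0.093 to 0.069, which gives no sign of pairing by number but cannot exclude it. A minimum of 10 counts in every library left no member, and the alternatives for arm shares were not run because no hairpin reached the minimum. Depth limits all members, since values of 1 to 3 counts lie within the detection floor.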

Other observations

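Between the first and last hairpins of the members, the table held 60 further mature miRNAs, of which 9 had counts (98 in all), 2 were tested and 0 were called, with 0 at an unadjusted p under 0.05 in edgeR. Other arms of member hairpins were among them, such as miR-299a-3p with 6 counts in all, miR-667-5p with 4 and miR-376b-5p and miR-543-5p with 3 each. Those named here were chosen after their values were seen. miR-341-3p, which lies within Rian, gave 9, 4, 19 and 8 counts in young 1 to 4, against 5, 1, 1 and 2 in aged 1 to 4. Its log2 fold change was -1.46 (SE 1.06, edgeR adjusted p = 0.586). miR-412-5p gave 1, 4, 2 and 1 counts in young 1 to 4, against 4, 3, 2 and 13 in aged 1 to 4, with a log2 fold change of 1.94 (SE 1.29, edgeR adjusted p = 0.528).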
